A study of Mus musculus with 33 samples.

Results

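The effect of hepatic glucose-6-phosphatase deficiency on the liver transcriptome was examined in the 16 of the 33 RNA-sequencing libraries that came from mice given the scrambled control shRNA (shSCR). The libraries were taken by their titles: 8 titled G6PC (s17 to s24, genotype L-G6pc-/-) and 8 titled WT (s1 to s8, genotype L-G6pc+/+). The other 17 libraries came from mice given an shRNA against ChREBP, 8 of genotype L-G6pc+/+ and 9 of genotype L-G6pc-/-, and they enter below as the second genotype pair. All mice were males on a C57BL/6J background, 13 to 18 weeks old at the time of the viral injection, and all were homozygous for the floxed G6pc allele. The L-G6pc-/- mice also carried 1 copy of a tamoxifen-inducible Cre recombinase at the serum albumin locus (SA creERT2/w), whereas their L-G6pc+/+ littermates were Cre-negative. Both groups received the same adeno-associated virus encoding shSCR and then tamoxifen, and livers were collected in the morning from nonfasted, chow-fed animals 10 days after the last tamoxifen injection. The presence of Cre and the loss of G6pc therefore cannot be told apart in this comparison, and the Cre acts in hepatocytes. The labels do not say that each library is a separate mouse, so that n counts libraries and p-values measure the spread between these libraries.

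G6pc encodes the catalytic subunit of glucose-6-phosphatase, which releases free glucose from glucose-6-phosphate at the end of both gluconeogenesis and glycogen breakdown. Its loss in the liver is the defect of glycogen storage disease type Ia, in which glucose-6-phosphate, glycogen and triglycerides accumulate in hepatocytes. ChREBP, encoded by Mlxipl, is a transcription factor that responds to glucose metabolites and binds carbohydrate response elements, a pair of spaced E-boxes, in the promoters of glycolytic and lipogenic genes such as Pklr, the liver pyruvate kinase gene.

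Libraries were made with the 3′ QuantSeq kit, which counts reads at the 3′ ends of transcripts, and levels are given as TMM-scaled CPM, which are counts relative to the total of the library. Log2 fold changes are L-G6pc-/- minus L-G6pc+/+ and are followed by their standard error, and groups in a comparison of levels are given with L-G6pc+/+ first. The total count ran from 2005791 to 3546852 in the L-G6pc+/+ libraries and from 1499243 to 2561801 in the L-G6pc-/- libraries, and the median over all 16 was 2153883. Log-scale correlations between replicates ran from 0.95 to 0.97 among the L-G6pc+/+ libraries and from 0.93 to 0.97 among the L-G6pc-/- libraries. The first principal component of the 16 libraries held 15.9% of the variance and separated the genotypes without overlap. Of the other libraries, s29, s30, s32 and s33 of the shChREBP/L-G6pc-/- group stood apart from the rest of their group. Results that compare that group are mostly given with and without them. The adjusted p values of the shSCR comparison also draw on them through the spread shared by all 33 libraries. Within the 16 libraries, s6 held the highest lipogenic levels of its group, s23 and s24 the highest Txnip and Rgs16 levels, and s21 and s22 the highest Saa2 and Lcn2 levels, and the results that rest on them are marked.

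The labelled tissue and the targeted gene were checked first. The 20 hepatocyte markers, among them albumin, summed to 79136 to 98215 CPM in the L-G6pc+/+ libraries and to 71317 to 82534 CPM in the L-G6pc-/- libraries. G6pc itself was read at 78.7 to 364 CPM (median 236) in the L-G6pc+/+ libraries and 158 to 752 CPM (median 276) in the L-G6pc-/- libraries, log2 fold change 0.56 ± 0.29, adjusted p = 0.368, so the transcript was not detectably lower in the L-G6pc-/- libraries. The libraries s23 and s24 held its highest levels, 752 and 460.4 CPM. A 3′ count reports the end of the transcript and checks a deletion only if the deleted part lies there, so these counts do not test the labels. The level of Mlxipl was 535 ± 57.5 against 574 ± 45.4 CPM (mean ± SD, n = 8 per group, as in all such pairs below), with no detectable genotype difference (log2 fold change 0.10 ± 0.13, adjusted p = 0.802).

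Among markers of other cells that whole liver could hold, 0 of 17 Kupffer cell and macrophage genes, 0 of 16 sinusoidal endothelial genes, 0 of 15 stellate cell genes, 0 of 6 cholangiocyte genes, 0 of 3 lymphocyte genes and 0 of 8 erythroid genes were called in edgeR. The numbers at an unadjusted p under 0.05 were 2, 1, 3, 2, 2 and 0, against 1486 of all 10179 genes tested. Limma-voom called 0 and DESeq2 called 1 of these genes, a lymphocyte marker. Over all genes edgeR called 3.23%, so 0 calls in lists this small does not show equal cell content. Of the 16 cholangiocyte and 21 lymphocyte markers listed, only 6 and 3 had enough counts to be tested. The summed Kupffer cell markers ran from 1318.6 to 2201 CPM and from 1235.3 to 2646.6 CPM in the 2 genotypes, and the ranges of the other 5 lists overlapped as well. Because these are bulk livers, fewer cells of a type and less RNA per cell cannot be told apart.

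Of the 20 hepatocyte markers, 1 was called in edgeR (5%, against 3.23% of all genes), and it was lower. At an unadjusted p under 0.05 there were 6, against 1486 of all 10179 genes tested. Of the 20 markers 4 were above 0, with a median log2 fold change of -0.16. Alb, the albumin gene at whose locus the Cre copy sits, was 12466 to 15323 CPM (median 14507) in the L-G6pc+/+ libraries and 6141 to 9118 CPM (median 8553) in the L-G6pc-/- libraries. For Alb, the log2 fold change was -0.79 ± 0.12 (adjusted p = 3.68e-05). Every L-G6pc-/- library lay below every L-G6pc+/+ library, and the mean of the former was lower by a factor of 1.73. With shChREBP the genotype difference was a log2 fold change of -1.07 ± 0.12, adjusted p = 6.63e-08, and -0.87 ± 0.12, adjusted p = 2.26e-05 without s29, s30, s32 and s33. Since only the L-G6pc-/- mice carry the altered albumin allele, an effect of that allele and an effect of G6pc loss cannot be told apart.

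Across the genome, 329 of 10179 genes tested (3.23%) passed the threshold of an adjusted p under 0.05 in edgeR's quasi-likelihood test with Benjamini-Hochberg adjustment, which is the source of every adjusted p below. Of these, 224 (2.2% of all tested) were higher and 105 (1.03%) were lower in the L-G6pc-/- libraries. When libraries were scaled by their totals alone, the split moved to 198 higher and 146 lower. The median log2 fold change was 0.0021 over all genes tested, 0.82 over those called higher and -0.68 over those called lower. At least 2-fold differences were found for 90 of the genes called higher and 25 of those called lower, and 4-fold differences for 14 and 7. For 77 genes (0.756% of those tested) the 2 groups did not overlap, 58 with every L-G6pc-/- library above and 19 with every such library below. Of the 329 genes, 317 were protein coding.

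**Figure D1:**
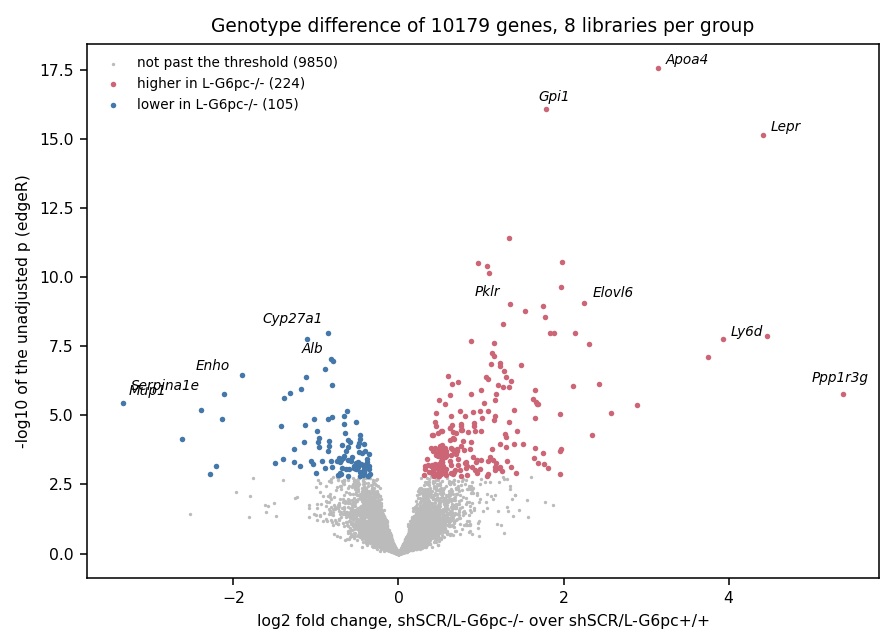
Log2 fold change of each of the 10179 genes tested (x axis) against the -log10 of its unadjusted p from edgeR (y axis), 8 libraries per group. The 224 genes called higher reach a log2 fold change of 5.39 (Ppp1r3g) and the 105 called lower reach -3.34 (Mup1), with Apoa4 at the smallest p.

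Among annotated genes with a mean of at least 5 CPM, the 10 largest rises were those of Ppp1r3g, Lepr, Ly6d, Spink1, Apoa4, Nr4a2, Saa2, Mycl, Elovl6 and Atp2b2. Lepr, the leptin receptor gene, was barely read in the L-G6pc+/+ libraries, and its levels were 1.36 to 3.34 CPM (median 1.55) in the L-G6pc+/+ libraries and 28.8 to 71.3 CPM (median 40.7) in the L-G6pc-/- libraries. For Lepr, the log2 fold change was 4.42 ± 0.33 (adjusted p = 2.46e-12). No L-G6pc+/+ library came near the lowest L-G6pc-/- library. Apoa4, which encodes a lipoprotein component made in intestine and liver, had the smallest p of all genes, with levels of 106 to 219 CPM (median 147) in the L-G6pc+/+ libraries and 1080.4 to 1949 CPM (median 1268) in the L-G6pc-/- libraries. For Apoa4, the log2 fold change was 3.14 ± 0.20 (adjusted p = 2.85e-14). Ly6d, a small membrane-anchored surface protein gene, had levels of 2.02 to 20.1 CPM (median 4.16) in the L-G6pc+/+ libraries and 64.5 to 193 CPM (median 95.1) in the L-G6pc-/- libraries, also without overlap. For Ly6d, the log2 fold change was 3.94 ± 0.55 (adjusted p = 8.34e-06).

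Spink1, a secreted trypsin inhibitor gene, was 0 to 1.94 CPM against 2.71 to 24.1 CPM (log2 fold change 3.75 ± 0.56, adjusted p = 2.94e-05) and did not overlap either, although its level stayed low. Mycl, a gene of the Myc family of transcription factors, was 5.56 to 22.7 CPM against 36.1 to 109.8 CPM without overlap (log2 fold change 2.3 ± 0.33, adjusted p = 1.08e-05). Atp2b2, a plasma membrane calcium pump gene, was 11 to 57.8 CPM against 53.3 to 192 CPM (log2 fold change 2.13 ± 0.29, adjusted p = 5.72e-06), the overlap being due to library s6. The nuclear receptor gene Nr4a2 was 2.11 to 6.56 CPM against 2.44 to 49.7 CPM (log2 fold change 2.9 ± 0.54, adjusted p = 0.000618). Its level was high in 6 L-G6pc-/- libraries, whereas s18 and s20, at 2.44 and 4.17 CPM, lay within the L-G6pc+/+ range. In limma-voom Nr4a2 was not called (2.43 ± 0.75, adjusted p = 0.0701). St6galnac4, a sialyltransferase gene, was among the 10 smallest p values, at 3.08 to 5.48 CPM against 12 to 26.8 CPM (log2 fold change 1.99 ± 0.21, adjusted p = 5.33e-08).

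**Figure D2:**
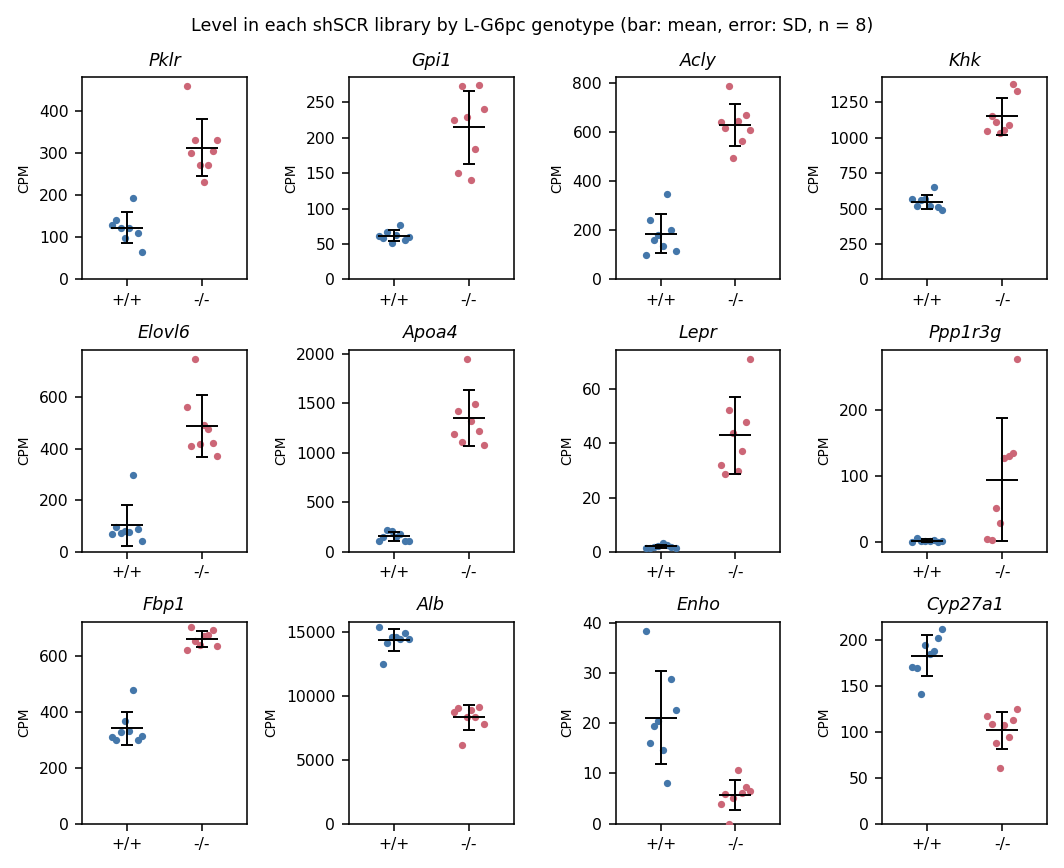
CPM of 12 genes in each of the 16 shSCR libraries (points), by L-G6pc genotype, with the mean and SD (n = 8 per genotype). The genotypes are separate for Pklr, Gpi1, Acly, Khk, Elovl6, Apoa4, Lepr, Fbp1, Alb and Cyp27a1, and overlap for Enho and, through 2 low L-G6pc-/- libraries, for Ppp1r3g.

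The list of ChREBP targets had the largest share of members called of the 50 lists examined. Of its 37 genes in the count table, 36 had enough counts to be tested (Cidec, the gene of a lipid droplet protein, did not), and 19 were called higher and 0 lower, against 2.2% and 1.03% over all genes. The median log2 fold change of the 36 was 0.73, and 33 were above 0, against 50.3% of all genes tested. The number called higher was 17 to 23 when 1 library was left out, the most without s6 and the fewest without s23. Summed over the list, levels were 11470 to 25894 CPM in the L-G6pc+/+ libraries and 23295 to 34988 CPM in the L-G6pc-/- libraries. The L-G6pc+/+ library with the highest sum was s6, and the heat map of these targets shows it as the library closest to the L-G6pc-/- group.

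Pklr is shown first because its promoter holds a match to the full pattern of a carbohydrate response element. The 250 bases upstream of its start are given below from RefSeq (GRCm38.p6, chr3:89136373-89136622, plus strand), with the match to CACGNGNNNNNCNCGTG in capitals, which is its own reverse complement and therefore one pattern on both strands. For comparison, the promoters of Khk (chr5:30921428-30921553, plus strand) and Arrdc4 (chr7:68749366-68749488, minus strand) are printed around the single E-box CACGTG, also in capitals and also palindromic, as examples of targets without the full pattern. Khk is the fructokinase gene and Arrdc4 encodes an arrestin-domain protein related to the product of Txnip.
Pklr: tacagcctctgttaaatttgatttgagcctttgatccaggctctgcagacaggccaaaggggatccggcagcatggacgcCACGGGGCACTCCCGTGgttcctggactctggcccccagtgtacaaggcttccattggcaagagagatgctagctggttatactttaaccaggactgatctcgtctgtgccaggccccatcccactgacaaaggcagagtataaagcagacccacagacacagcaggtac
Khk: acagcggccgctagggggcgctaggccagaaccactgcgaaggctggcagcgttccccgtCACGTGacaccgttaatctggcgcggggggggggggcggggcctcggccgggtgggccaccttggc
Arrdc4: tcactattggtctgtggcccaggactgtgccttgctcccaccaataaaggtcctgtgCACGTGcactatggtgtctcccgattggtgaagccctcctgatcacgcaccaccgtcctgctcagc

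The 17-base pattern occurred in 15 of 32851 promoter windows of 300 bases in the RefSeq table (0.0457%; a gene may have more than 1 window), and in 5 of the 10104 windows of genes tested here. It occurred in 3 of 226 windows of genes called higher, those of Pklr, Fam124a and Irak1bp1, and in 0 of 97 windows of genes called lower. Fam124a and Irak1bp1 are named only for this match. Among the 31 windows of tested ChREBP targets the pattern occurred in 1, that of Pklr. The single E-box was present in 7.15% of all windows, 10.1% of windows of tested genes, 13.3% of windows of genes called higher and 7.22% of windows of genes called lower. Among the 31 windows of tested ChREBP targets 5 held the single E-box (16.1%). A match is a description of the letters and not a binding site, and its absence says nothing about the factor.

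Pklr, whose product makes pyruvate in the last step of glycolysis, was 65.9 to 195 CPM (median 122) in the L-G6pc+/+ libraries and 232 to 461 CPM (median 304) in the L-G6pc-/- libraries. For Pklr, the log2 fold change was 1.35 ± 0.17 (adjusted p = 8.68e-07). All 8 L-G6pc-/- libraries lay above the highest L-G6pc+/+ library. Khk, which phosphorylates fructose, was 489 to 649.8 CPM (median 539.8) in the L-G6pc+/+ libraries and 1035 to 1380.4 CPM (median 1100.5) in the L-G6pc-/- libraries, a clear separation with little spread (log2 fold change 1.07 ± 0.12, adjusted p = 6.03e-08). Tkfc, which phosphorylates the glyceraldehyde made from fructose, was 116 to 312 CPM against 311 to 613 CPM (log2 fold change 1.16 ± 0.16, adjusted p = 1.07e-05), with s6 alone just inside the L-G6pc-/- range.

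**Figure D3:**
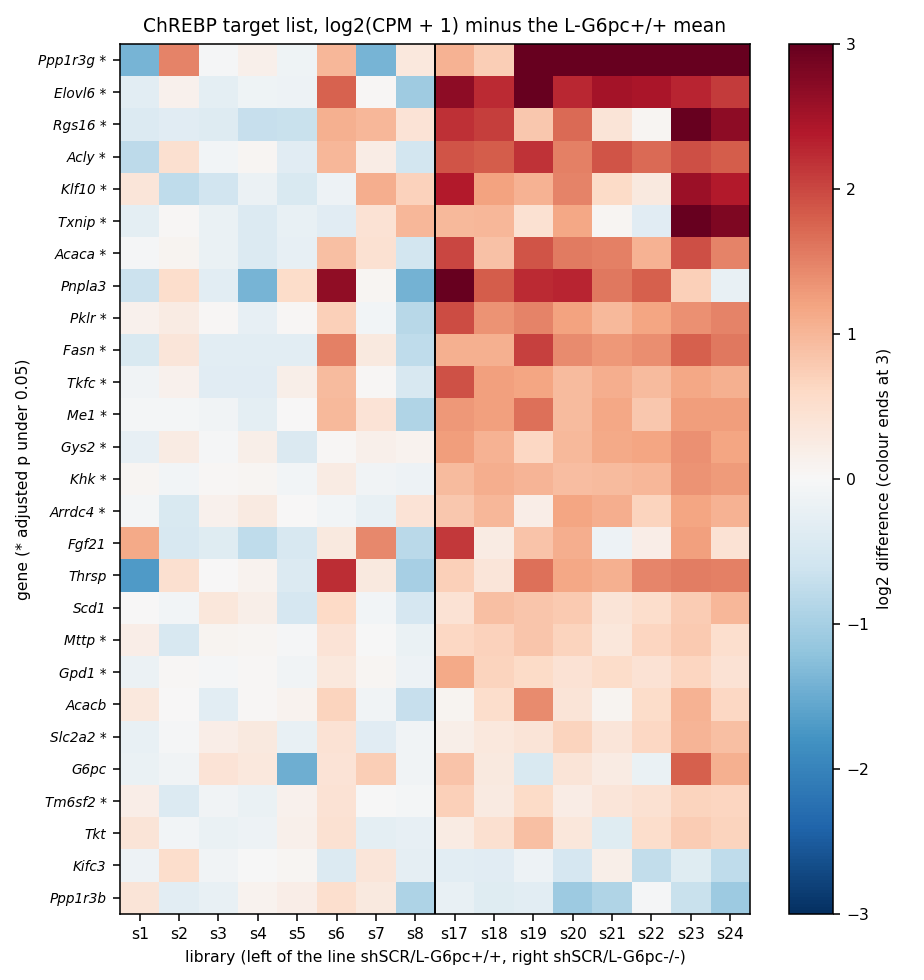
The 27 tested ChREBP targets that are named in the text (rows, ordered by log2 fold change) in each of the 16 shSCR libraries (columns). Colour gives log2(CPM + 1) minus the mean of the 8 L-G6pc+/+ libraries, and an asterisk marks an adjusted p under 0.05. The 18 marked genes are red across most L-G6pc-/- libraries, while s23 and s24 are the reddest for Txnip and Rgs16.

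Elovl6, Acly, Acaca, Me1 and Fasn were the lipogenic targets called higher, whereas Scd1, Acacb and Thrsp, below, did not pass the test. Elovl6, the elongase that extends palmitate, was 40.9 to 296 CPM (median 78) in the L-G6pc+/+ libraries and 372 to 748 CPM (median 450.2) in the L-G6pc-/- libraries. For Elovl6, the log2 fold change was 2.25 ± 0.28 (adjusted p = 8.63e-07), and the one L-G6pc+/+ library above 100 CPM was s6. Acly, which makes cytosolic acetyl-CoA from citrate, was 100.1 to 346 CPM (median 172) in the L-G6pc+/+ libraries and 495 to 788 CPM (median 629) in the L-G6pc-/- libraries without overlap. For Acly, the log2 fold change was 1.75 ± 0.22 (adjusted p = 9.13e-07). Acaca, the acetyl-CoA carboxylase of lipogenesis, was 27.7 to 77.9 CPM against 76.2 to 169 CPM (log2 fold change 1.53 ± 0.19, adjusted p = 1.3e-06). Me1, the malic enzyme that supplies NADPH, was 111 to 411 CPM against 364 to 654 CPM (log2 fold change 1.13 ± 0.17, adjusted p = 2.28e-05). Fasn, fatty acid synthase, was 427 to 2052 CPM against 1499 to 2962 CPM (log2 fold change 1.31 ± 0.29, adjusted p = 0.00491), its overlap again due to s6 with 2052 CPM.

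Further members were called higher with smaller differences. Gpd1, which makes glycerol-3-phosphate, was 301 ± 34.4 against 462 ± 84.3 CPM (log2 fold change 0.62 ± 0.11, adjusted p = 0.000307). Slc2a2, the hepatic glucose transporter GLUT2, was 297 ± 58.9 against 439 ± 92.5 CPM (log2 fold change 0.56 ± 0.13, adjusted p = 0.00989). Arrdc4 was 6.75 ± 1.46 against 13.5 ± 2.9 CPM (log2 fold change 1.0 ± 0.21, adjusted p = 0.00335). Klf10, a transcription factor gene induced by glucose, was 11.1 ± 5.88 against 35 ± 20.6 CPM (log2 fold change 1.68 ± 0.31, adjusted p = 0.000581). Mttp, which loads lipid onto very low density lipoproteins, was 144 ± 25.9 against 222 ± 23.2 CPM (log2 fold change 0.62 ± 0.13, adjusted p = 0.00276). Tm6sf2, which acts in the same step, was 26.7 ± 5.02 against 37.5 ± 5.01 CPM (log2 fold change 0.48 ± 0.12, adjusted p = 0.0154). The 2 glycogen genes of the list, Gys2 and Ppp1r3g, are described below.

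Txnip, an arrestin-domain gene and a widely used readout of glucose sensing, and Rgs16, a regulator of G-protein signalling, were called with most of the rise in a few libraries. Txnip was 152 to 406 CPM (median 174) in the L-G6pc+/+ libraries and 159 to 2012 CPM (median 402) in the L-G6pc-/- libraries. For Txnip, the log2 fold change was 1.64 ± 0.42 (adjusted p = 0.0176). Libraries s23 and s24 held 2012 and 1408 CPM, and the other 6 ranged up to 450.3 CPM, close to the highest L-G6pc+/+ library. Without s23 and s24 the difference was 0.58 ± 0.33, adjusted p = 0.445, without s23 alone 1.14 ± 0.38, adjusted p = 0.0973, and without s24 alone 1.39 ± 0.41, adjusted p = 0.0563. In limma-voom Txnip was not called (1.18 ± 0.40, adjusted p = 0.111). Rgs16 was 54.5 to 187 CPM (median 68.2) in the L-G6pc+/+ libraries and 91.8 to 1079.7 CPM (median 332) in the L-G6pc-/- libraries. For Rgs16, the log2 fold change was 1.96 ± 0.47 (adjusted p = 0.0114). Library s23 held 1079.7 CPM, and without it the log2 fold change was 1.53 ± 0.45, adjusted p = 0.051. With both s23 and s24 left out, 16 of the 36 targets were called higher, and Slc2a2 (0.42 ± 0.13, adjusted p = 0.0855) and Tm6sf2 (0.43 ± 0.13, adjusted p = 0.067) were among those lost.

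The other 17 targets did not pass the test. Scd1, the main stearoyl-CoA desaturase of the liver, was 5544 ± 1484 against 8824 ± 1350.2 CPM (log2 fold change 0.67 ± 0.21, adjusted p = 0.0735). Acacb, the carboxylase that restrains fatty acid oxidation, was 72.1 ± 20.5 against 110.5 ± 38.9 CPM (log2 fold change 0.61 ± 0.19, adjusted p = 0.0647). Tkt, the transketolase of the pentose phosphate pathway, was 266 ± 57.4 against 367 ± 89.5 CPM (log2 fold change 0.46 ± 0.15, adjusted p = 0.0735), so that these 3 were near the threshold, and DESeq2 called each of them. Pnpla3, a lipid droplet gene, was 5.05 ± 7.64 against 13.9 ± 9.28 CPM (log2 fold change 1.41 ± 0.50, adjusted p = 0.128), and Thrsp, a lipogenic nuclear factor, was 844 ± 846 against 1464 ± 406 CPM (log2 fold change 0.79 ± 0.46, adjusted p = 0.453). In both, s6 held the highest level of the L-G6pc+/+ group, 23.5 and 2862 CPM. Without s6 Pnpla3 was called (2.45 ± 0.47, adjusted p = 0.00116), as were Scd1, Acacb and Tkt, and Thrsp was not (1.39 ± 0.44, adjusted p = 0.0773). The hepatokine Fgf21 was 2.96 ± 2.74 against 5.3 ± 3.66 CPM (log2 fold change 0.86 ± 0.50, adjusted p = 0.454).

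Of the 35 glycolysis and fructose genes on the list 26 were tested. Of these 7 were called higher and 1 lower (30.8%, against 3.23% of all genes), with a median log2 fold change of 0.22. Gapdh, Pgk1 and Pgam1, which encode enzymes of glycolysis, were among those with too few counts to be tested. Gpi1, which converts glucose-6-phosphate to fructose-6-phosphate, was 52 to 77.1 CPM (median 60.9) in the L-G6pc+/+ libraries and 139.9 to 274 CPM (median 227) in the L-G6pc-/- libraries. For Gpi1, the log2 fold change was 1.79 ± 0.12 (adjusted p = 4.36e-13), the second smallest p of all genes. It was higher than every control in all 8 libraries, by more than 3-fold in the mean (factor 3.46). Slc2a5, the fructose transporter GLUT5, was low but higher, at 4.54 to 15.1 CPM against 12.2 to 26.1 CPM (log2 fold change 1.27 ± 0.22, adjusted p = 0.000187).

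The list of gluconeogenesis and the glucose-6-phosphatase system also holds genes of pyruvate dehydrogenase and its kinases, which are not gluconeogenic. Of its 22 tested genes 5 were called higher and 1 lower (27.3%, against 3.23% of all genes), with a median of 0.14. When 1 library was left out, 2 to 5 were called higher. Fbp1, fructose-1,6-bisphosphatase, was 298 to 478 CPM (median 322) in the L-G6pc+/+ libraries and 622 to 702 CPM (median 662) in the L-G6pc-/- libraries. For Fbp1, the log2 fold change was 0.96 ± 0.10 (adjusted p = 5.33e-08), and the L-G6pc-/- libraries spanned a narrow range well above all controls. Pdhb and Pdha1, subunits of pyruvate dehydrogenase, were 65.9 ± 18.8 against 103 ± 17.4 CPM (log2 fold change 0.65 ± 0.13, adjusted p = 0.00223) and 104 ± 8.45 against 130.0 ± 11.4 CPM (log2 fold change 0.32 ± 0.09, adjusted p = 0.0275). Pcx, pyruvate carboxylase, was 251 ± 32.7 against 353 ± 88.7 CPM (log2 fold change 0.49 ± 0.14, adjusted p = 0.034), and Ppargc1a, a coactivator of gluconeogenic genes, was 33.8 ± 13.7 against 78.2 ± 46.1 CPM (log2 fold change 1.22 ± 0.33, adjusted p = 0.0301). Gpt, the alanine aminotransferase gene, was lower, at 202 ± 38.2 against 128 ± 27 CPM (log2 fold change -0.66 ± 0.14, adjusted p = 0.00222). The calls of Pdha1, Pcx and Ppargc1a depended on single libraries. Pdha1 was lost without s1, s3, s7, s8 or s24, adjusted p up to 0.0646, Pcx in 7 of the 16 fits without 1 library, adjusted p up to 0.105 and Ppargc1a in 7 of the 16 fits without 1 library, adjusted p up to 0.0924 (and in limma-voom). Pck1, the phosphoenolpyruvate carboxykinase gene, was 3632 ± 1636 against 5120.4 ± 1428 CPM (log2 fold change 0.50 ± 0.26, adjusted p = 0.383), and Slc37a4, the glucose-6-phosphate transporter that works with G6pc, was 154 ± 37 against 203 ± 33.6 CPM (log2 fold change 0.41 ± 0.14, adjusted p = 0.105). Neither passed the test, although Slc37a4 did without s6 (0.49 ± 0.14, adjusted p = 0.0427).

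In glycogen metabolism 3 of 25 tested genes were called higher and 0 lower (12%, against 3.23% of all genes), with a median of 0.09. Gys2, the liver glycogen synthase, was 32.3 to 52.1 CPM (median 45.9) in the L-G6pc+/+ libraries and 67.3 to 115 CPM (median 99.1) in the L-G6pc-/- libraries. For Gys2, the log2 fold change was 1.12 ± 0.17 (adjusted p = 4.32e-05), with no overlap. Ugp2, which makes UDP-glucose, was 125 to 208 CPM against 165 to 357 CPM (log2 fold change 0.67 ± 0.15, adjusted p = 0.00573). Ppp1r3g, a subunit that directs protein phosphatase 1 to glycogen, had the largest rise of all genes called (log2 fold change 5.39 ± 0.95, adjusted p = 0.000295), but its libraries differed widely. The L-G6pc+/+ libraries held 0 to 6.39 CPM. Of the L-G6pc-/- libraries, s17 and s18 held 4.46 and 3.42 CPM, s19 and s20 held 51.8 and 28.7 CPM, s21, s22 and s23 held 128, 129.9 and 135 CPM, and s24 held 278 CPM. Thus 6 of the 8 lay far above all controls and 2 lay among them. In limma-voom Ppp1r3g was not called, with a log2 fold change of 4.93 ± 2.12, adjusted p = 0.25. Another such subunit gene, Ppp1r3b, did not pass the test, at 1145 ± 326 against 756 ± 207 CPM (log2 fold change -0.60 ± 0.22, adjusted p = 0.16). Pygl, the liver glycogen phosphorylase, was 1539 ± 191 against 1780.3 ± 321 CPM (log2 fold change 0.21 ± 0.10, adjusted p = 0.332) and Gbe1, the branching enzyme, was 124 ± 18.5 against 142 ± 19.9 CPM (log2 fold change 0.20 ± 0.14, adjusted p = 0.579).

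Of the 12 tested pentose phosphate pathway genes 2 were called higher (16.7%, against 3.23% of all genes). Pgd, which yields NADPH from 6-phosphogluconate, was 63.2 to 135 CPM against 172 to 260.2 CPM without overlap (log2 fold change 1.06 ± 0.17, adjusted p = 0.000102). Rpia, ribose-5-phosphate isomerase, was 5.28 to 16.6 CPM against 9.62 to 23.4 CPM (log2 fold change 0.92 ± 0.26, adjusted p = 0.034), a call lost in 11 of the 16 fits without 1 library, adjusted p up to 0.0932.

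De novo lipogenesis genes were called higher in 5 of 22 cases and lower in 0 (22.7%, against 3.23% of all genes), with a median of 0.18. The 5 were Elovl6, Acly, Acaca, Me1 and Fasn, all of which are also on the ChREBP target list. Among the 13 tested genes of polyunsaturated fatty acid synthesis, Elovl6 and Elovl5 were called higher (15.4%, against 3.23% of all genes). Elovl5, an elongase of long-chain polyunsaturated fatty acids, was 422 to 907 CPM against 822 to 2298 CPM (log2 fold change 1.09 ± 0.21, adjusted p = 0.000924). Elovl3, which elongates saturated fatty acids, was 108 ± 83.9 against 37.9 ± 31.9 CPM (log2 fold change -1.48 ± 0.71, adjusted p = 0.321). For Elovl3, 4 L-G6pc+/+ libraries lay above the highest L-G6pc-/- library, the medians being 92.9 and 34.5 CPM.

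In triglyceride synthesis and lipid droplets 3 of 28 tested genes were called higher and 0 lower (10.7%, against 3.23% of all genes). Cd36, a fatty acid uptake gene, was 56.1 ± 12.4 against 87.5 ± 24.1 CPM (log2 fold change 0.65 ± 0.15, adjusted p = 0.0103). Mgll, monoacylglycerol lipase, was 382 ± 80.7 against 590.1 ± 71.4 CPM (log2 fold change 0.63 ± 0.16, adjusted p = 0.0208), a call lost without s8, adjusted p up to 0.0516. Agpat3, an acyltransferase of phospholipid and triglyceride synthesis, was 226 ± 13.8 against 289 ± 44 CPM (log2 fold change 0.35 ± 0.10, adjusted p = 0.0268), a call lost without s7, s23 or s24, adjusted p up to 0.0815.

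Lipoprotein genes stood out by a few members. Of 25 tested, 6 were called higher and 0 lower (24%, against 3.23% of all genes), although the median was -0.01. Besides Apoa4, Mttp and Tm6sf2, these were Apoc2, Apoc3 and Lpl. Apoc2, the cofactor of lipoprotein lipase, was 130.2 to 230.0 CPM (median 204) in the L-G6pc+/+ libraries and 290.0 to 576 CPM (median 432) in the L-G6pc-/- libraries. For Apoc2, the log2 fold change was 1.1 ± 0.12 (adjusted p = 8.91e-08). Apoc3, an inhibitor of triglyceride clearance, was 1571 ± 246 against 2434 ± 172 CPM (log2 fold change 0.63 ± 0.12, adjusted p = 0.0013). Lpl, lipoprotein lipase itself, was 49.1 ± 11.8 against 82.6 ± 35.1 CPM (log2 fold change 0.74 ± 0.21, adjusted p = 0.0329). Apoc2 and Apoc3 did not overlap between the genotypes, whereas the call of Lpl was lost in 9 of the 16 fits without 1 library, adjusted p up to 0.127 (and in limma-voom).

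Cholesterol synthesis genes were mostly below 0 (9 of 31 above 0, median -0.17), with 1 called in each direction (6.45%, against 3.23% of all genes). Msmo1, a sterol demethylation enzyme, was lower at 126 to 343 CPM against 51.5 to 172 CPM (log2 fold change -1.02 ± 0.20, adjusted p = 0.00158).

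The bile acid list of 28 tested genes held 1 called higher and 3 called lower (14.3%, against 3.23% of all genes), with a median of -0.19. Cyp8b1, the sterol 12-alpha-hydroxylase that directs synthesis to cholic acid, was higher, at 65.4 to 158 CPM (median 122) in the L-G6pc+/+ libraries and 177 to 358 CPM (median 278) in the L-G6pc-/- libraries. For Cyp8b1, the log2 fold change was 1.18 ± 0.21 (adjusted p = 0.000299). Cyp27a1, which oxidises the sterol side chain, was lower, at 142 to 213 CPM (median 187) in the L-G6pc+/+ libraries and 60.2 to 124 CPM (median 108) in the L-G6pc-/- libraries. For Cyp27a1, the log2 fold change was -0.85 ± 0.12 (adjusted p = 5.72e-06). Cyp2c70, which makes the muricholic acids of the mouse, was 272 to 433 CPM (median 314) in the L-G6pc+/+ libraries and 123 to 218 CPM (median 170.4) in the L-G6pc-/- libraries. For Cyp2c70, the log2 fold change was -0.89 ± 0.14 (adjusted p = 6.01e-05). These 3 genes were separate between the genotypes in all libraries. Cyp7b1, the oxysterol 7-alpha-hydroxylase of the alternative pathway and also a male-biased gene, was 101 to 351 CPM against 53.3 to 150.3 CPM (log2 fold change -0.92 ± 0.24, adjusted p = 0.0216), a call lost without s8 or s20, adjusted p up to 0.0757.

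In fatty acid oxidation 1 of 45 genes was called higher and 1 lower, a share near the 3.23% of all genes. Acaa1a, a peroxisomal thiolase, was 305 ± 46.8 against 236 ± 29.8 CPM (log2 fold change -0.37 ± 0.11, adjusted p = 0.0482), a call lost in 13 of the 16 fits without 1 library, adjusted p up to 0.137. Of 48 urea cycle and amino acid genes, 2 were lower, Gpt and Nags, and 1 was higher, Kynu (6.25%, against 3.23% of all genes). Nags, which makes the activator of the urea cycle, was 58.8 ± 7.74 against 39.2 ± 7.33 CPM (log2 fold change -0.58 ± 0.13, adjusted p = 0.00678). Kynu, kynureninase, was 57.6 ± 11.7 against 81.9 ± 12.7 CPM (log2 fold change 0.51 ± 0.13, adjusted p = 0.0216), a call lost without s1 or s5, adjusted p up to 0.0594.

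The list of major urinary proteins and male-biased genes had the lowest median of the 50 lists, -0.92 over 17 tested genes. Of these 5 were called lower and 0 higher (29.4%, against 3.23% of all genes), and 3 to 5 lower when 1 library was left out. Another 5 of the 17 were above 0, with log2 fold changes up to 1.24. Summed levels of the list overlapped, at 2397.2 to 6747.6 CPM against 2565.7 to 3975.8 CPM. Serpina1e, a protease inhibitor gene of the alpha-1-antitrypsin family, was 371 to 2033 CPM (median 933) in the L-G6pc+/+ libraries and 75.7 to 493 CPM (median 209) in the L-G6pc-/- libraries. For Serpina1e, the log2 fold change was -2.12 ± 0.37 (adjusted p = 0.000299). Mup1, which encodes a secreted pheromone carrier, was 6.55 to 85 CPM against 0.557 to 7.21 CPM (log2 fold change -3.34 ± 0.61, adjusted p = 0.000548). Mup12 of the same family was 10 to 78.2 CPM against 2.48 to 13.5 CPM (log2 fold change -2.39 ± 0.45, adjusted p = 0.000882), and Mup11 was 17.7 to 309 CPM against 4 to 73 CPM (log2 fold change -2.21 ± 0.60, adjusted p = 0.0274). Cyp7b1, above, was the fifth. The genotypes overlapped for Serpina1e and the 3 Mup genes, and for the 3 Mup genes s8 held the highest control level. The call of Mup11 was lost in 7 of the 16 fits without 1 library, adjusted p up to 0.111. Mup genes and Serpina1e have near-identical copies, among which short reads cannot be placed with certainty, so their single levels are uncertain.

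**Figure D4:**
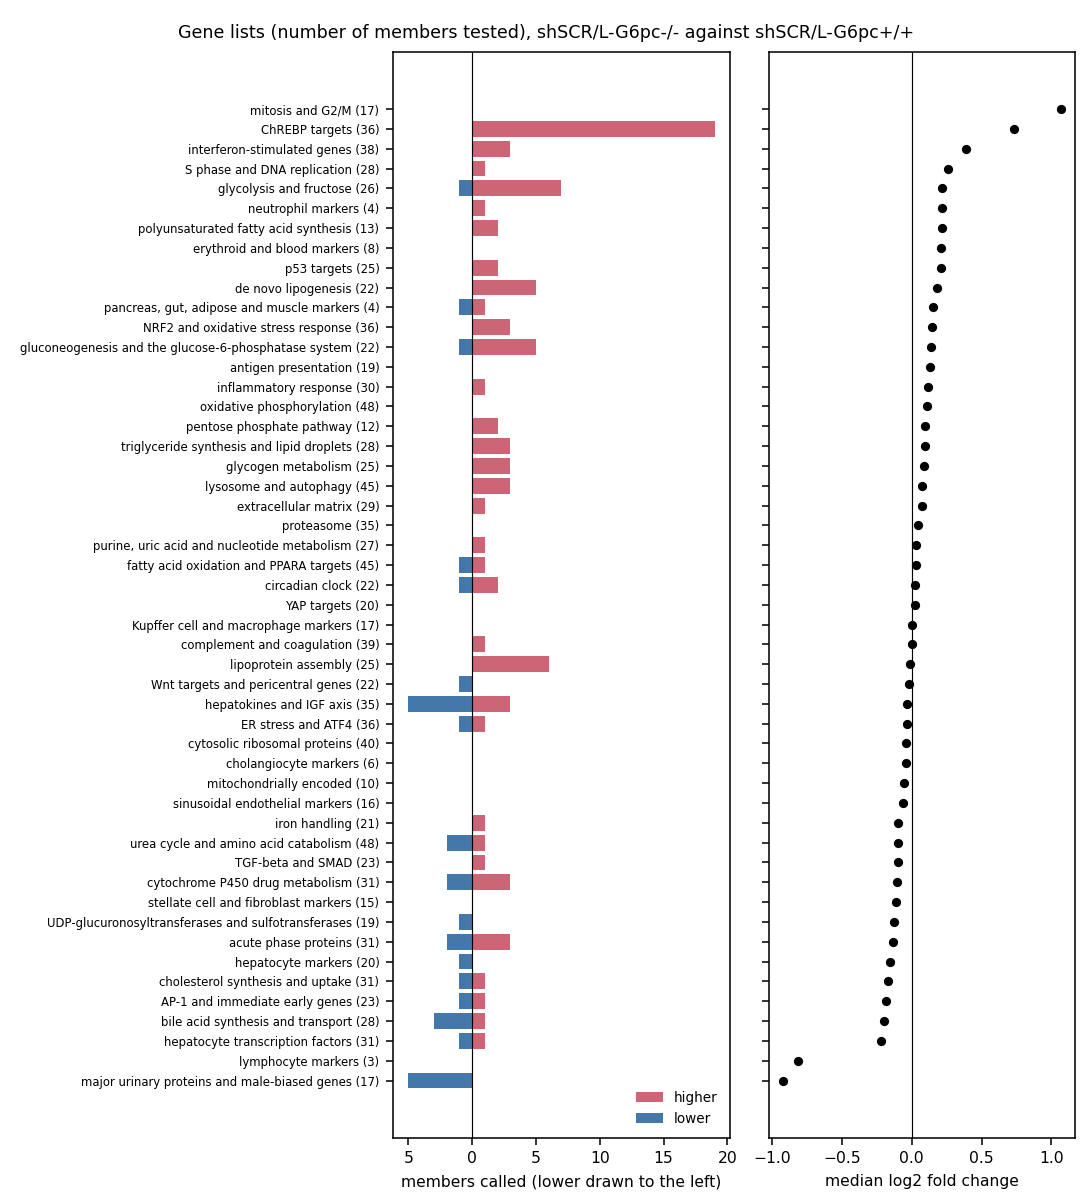
Number of members called higher or lower (left) and median log2 fold change of the tested members (right) for the 50 gene lists, with the number of members tested in brackets. The ChREBP targets have the most members called, 19 of 36, and the mitosis list has the highest median, 1.07, with 0 called.

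The other large falls were in genes of varied function. Ptgds, the lipocalin-type prostaglandin D synthase, was 25.3 to 159 CPM against 6.84 to 26.7 CPM (log2 fold change -2.14 ± 0.43, adjusted p = 0.00153). Enho, which encodes the secreted peptide adropin, was 8.09 to 38.3 CPM against 0 to 10.7 CPM (log2 fold change -1.9 ± 0.31, adjusted p = 9.77e-05). Sult5a1, a sulfotransferase gene, was 16.7 to 49 CPM against 6.44 to 26.1 CPM (log2 fold change -1.39 ± 0.25, adjusted p = 0.000398). It was the one call among 19 glucuronosyl- and sulfotransferase genes (5.26%, against 3.23% of all genes). Plekhf1, an endosomal protein gene, was 7.23 to 11.2 CPM against 0.557 to 6.44 CPM and did not overlap (log2 fold change -1.42 ± 0.29, adjusted p = 0.00241). Arrdc2, another arrestin-domain gene, was 4.09 to 37.8 CPM against 4.06 to 10.2 CPM (log2 fold change -1.4 ± 0.36, adjusted p = 0.0194), a call lost without s5 or s6, adjusted p up to 0.0676 (and in limma-voom).

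Among hepatokine and growth factor genes 3 of 35 were called higher and 5 lower (22.9%, against 3.23% of all genes). Besides Lepr, those called higher were Selenop and Inhba. Selenop, the plasma selenium carrier, was 2989 to 4079.8 CPM (median 3545) in the L-G6pc+/+ libraries and 4631 to 6446 CPM (median 5169.8) in the L-G6pc-/- libraries, without overlap (log2 fold change 0.60 ± 0.10, adjusted p = 9.77e-05). Inhba, an activin subunit gene, was 22.8 ± 10.4 against 43 ± 19.2 CPM (log2 fold change 0.89 ± 0.24, adjusted p = 0.0289), a call lost without s2, s3, s4, s8 or s17, adjusted p up to 0.123. Besides Enho, Igf1 was lower, at 731 ± 77.6 against 525 ± 65.8 CPM (log2 fold change -0.48 ± 0.11, adjusted p = 0.00742). Igfals, which holds circulating IGF1 in a ternary complex, was 178 ± 37.5 against 117 ± 20 CPM (log2 fold change -0.61 ± 0.14, adjusted p = 0.00623). Fgf1 and Fetub, named here after their values were seen, completed the 5. The growth factor gene Fgf1 was 66.2 ± 9.84 against 48.2 ± 8 CPM (log2 fold change -0.46 ± 0.13, adjusted p = 0.0382), a call lost in 11 of the 16 fits without 1 library, adjusted p up to 0.115. Fetub, a secreted protease inhibitor gene, was 996 ± 149.5 against 729 ± 171 CPM (log2 fold change -0.45 ± 0.13, adjusted p = 0.0396), a call lost in 10 of the 16 fits without 1 library, adjusted p up to 0.105.

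Cytochrome P450 genes of drug metabolism moved singly: 3 of 31 were called higher and 2 lower (16.1%, against 3.23% of all genes), with a median of -0.10. Cyp2d40 was 39.1 to 80.2 CPM (median 61) in the L-G6pc+/+ libraries and 85.7 to 232 CPM (median 146) in the L-G6pc-/- libraries, without overlap. For Cyp2d40, the log2 fold change was 1.3 ± 0.21 (adjusted p = 0.000102). Cyp2a4, a steroid hydroxylase gene with close paralogs, was 19.6 to 197 CPM against 149 to 741 CPM (log2 fold change 2.12 ± 0.36, adjusted p = 0.000184), and Cyp2f2 was 253 ± 91.9 against 533 ± 194 CPM (log2 fold change 1.08 ± 0.31, adjusted p = 0.0429). Cyp2b13 was lower at 6.06 to 18.6 CPM against 0.991 to 7.6 CPM (log2 fold change -1.49 ± 0.39, adjusted p = 0.024), as was Ahr, the aryl hydrocarbon receptor gene, at 19.8 ± 4.83 against 11.9 ± 3.78 CPM (log2 fold change -0.74 ± 0.21, adjusted p = 0.0448). The call of Cyp2f2 was lost in 11 of the 16 fits without 1 library, adjusted p up to 0.0991 (and in limma-voom), that of Cyp2b13 without s5, s17, s18, s21 or s22, adjusted p up to 0.0815, and that of Ahr in 13 of the 16 fits without 1 library, adjusted p up to 0.105. Without s29, s30, s32 and s33 the call of Ahr was lost as well.

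Acute phase genes split in both directions, with 3 of 31 called higher and 2 lower (16.1%, against 3.23% of all genes). Saa2, a serum amyloid A gene with a close paralog, was 44.7 to 281 CPM (median 164) in the L-G6pc+/+ libraries and 110.4 to 2255 CPM (median 607) in the L-G6pc-/- libraries. For Saa2, the log2 fold change was 2.34 ± 0.51 (adjusted p = 0.00434). The highest levels were those of s21 and s22, 2255 and 1809.9 CPM, and s18, s23 and s24 lay within the control range. These libraries also had the highest levels of Lcn2, which is also a neutrophil marker, with 63.9 and 48.1 CPM. Over the groups Lcn2 was 5.36 ± 3.31 against 21.3 ± 22.5 CPM (log2 fold change 1.97 ± 0.47, adjusted p = 0.0104). Likewise they had the highest levels of Serpina3n, a protease inhibitor gene, with 296 and 261 CPM. Over the groups Serpina3n was 111 ± 12.6 against 172 ± 69.1 CPM (log2 fold change 0.64 ± 0.16, adjusted p = 0.015). Without s21 and s22 the log2 fold change of Saa2 became 1.36 ± 0.46, adjusted p = 0.122, that of Lcn2 0.88 ± 0.41, adjusted p = 0.34, and that of Serpina3n 0.31 ± 0.13, adjusted p = 0.257. With these 2 libraries left out, 0 of the acute phase genes were called higher, and without s23 and s24, which lay within the control range for Saa2, 6 were. Lcn2 was also lost without s21, adjusted p up to 0.0501 (and in limma-voom), and Serpina3n without s21 or s22, adjusted p up to 0.0597. The other 3 tested neutrophil markers were not called. Saa4, a constitutive member of the family, was lower at 579.6 to 1138 CPM against 381 to 712 CPM (log2 fold change -0.84 ± 0.19, adjusted p = 0.00671). Lbp, the lipopolysaccharide-binding protein gene, was 317 ± 90.6 against 207 ± 36.4 CPM (log2 fold change -0.62 ± 0.16, adjusted p = 0.02), a call lost without s5, s8 or s21, adjusted p up to 0.0792.

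In the list of inflammatory genes Lcn2 was the single call of 30, and C4bp was the single call of 39 complement and coagulation genes. These shares, 3.33% and 2.56%, are near the 3.23% of all genes. C4bp, a complement inhibitor gene, was higher without overlap (203 to 294 CPM against 309.7 to 404 CPM, log2 fold change 0.49 ± 0.09, adjusted p = 0.000463). Antigen presentation genes were called in 0 of 19 cases in edgeR, against 3.23% of all genes (2 at an unadjusted p under 0.05, 1 in DESeq2 and 0 in limma-voom). Interferon-stimulated genes had mostly small positive values, with 36 of 38 above 0 and a median of 0.39. Of the 38, 3 were called (7.89%, against 3.23% of all genes), and 2 to 4 when 1 library was left out. Usp18, which limits interferon receptor signalling, was 18.7 ± 2.92 against 32.7 ± 9.05 CPM (log2 fold change 0.80 ± 0.19, adjusted p = 0.0107). Gbp3, a guanylate-binding protein gene, was 13.5 ± 4.35 against 27.4 ± 7.18 CPM (log2 fold change 1.0 ± 0.26, adjusted p = 0.0203). Ifi27l2a was 7.29 ± 1.78 against 14.3 ± 3.6 CPM (log2 fold change 0.94 ± 0.25, adjusted p = 0.0226), a call lost without s20, adjusted p up to 0.0621.

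Mitosis genes had the highest median of all lists, 1.07 over 17 tested genes, of which 16 were above 0. EdgeR, DESeq2 and limma-voom each called 0 of the 17, against 9 at an unadjusted p under 0.05. These 9 are a larger share than the 1486 of 10179 over all genes. The edgeR fit of the 16 shSCR libraries alone called 2 mitosis genes, among them Top2a (1.37 ± 0.38, adjusted p = 0.0482), and limma on the deposited values called 1. Their levels were low, with sums of 89.5 to 161 CPM in the L-G6pc+/+ libraries and 128 to 239 CPM in the L-G6pc-/- libraries. Top2a, the topoisomerase of dividing cells, was 7.73 ± 6.23 against 20.3 ± 10.2 CPM (log2 fold change 1.37 ± 0.51, adjusted p = 0.158). Nusap1, a spindle protein gene, was 2.03 ± 1.67 against 6.39 ± 3.18 CPM (log2 fold change 1.56 ± 0.59, adjusted p = 0.165). Mki67, the Ki67 gene, was 1.34 ± 1.72 against 4.82 ± 2.59 CPM (log2 fold change 1.77 ± 0.69, adjusted p = 0.18). In each of these 3 the mean was higher by more than the SD of either group, at levels where 1 read weighs much. The other 18 of the 35 genes of the list had too few counts to be tested. Of 28 S phase genes 1 was called (3.57%), a share near the 3.23% of all genes. It was Cdt1, a replication licensing factor gene, higher at 2.31 to 5.91 CPM against 4.4 to 17.3 CPM (log2 fold change 1.31 ± 0.31, adjusted p = 0.00935), a call lost without s23 and s24.

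Phlda3, a p53 target that restrains Akt, was separate between the genotypes, at 2.43 to 8.68 CPM (median 4.2) in the L-G6pc+/+ libraries and 14 to 24.3 CPM (median 15.5) in the L-G6pc-/- libraries. For Phlda3, the log2 fold change was 1.88 ± 0.26 (adjusted p = 5.72e-06). The other call in edgeR among 25 tested p53 targets (2 to 4 called higher when 1 library was left out) was Ephx1, the microsomal epoxide hydrolase gene (61.6 ± 8.77 against 115 ± 30.5 CPM, log2 fold change 0.90 ± 0.17, adjusted p = 0.00101), which also belongs to the list of NRF2 and oxidative stress genes. In that NRF2 list 3 of 36 were called higher and 0 lower (8.33%). This share and the 8% called among the p53 targets stand against 3.23% of all genes. Fth1, ferritin heavy chain and also the one call among 21 iron genes (4.76%, against 3.23% of all genes), was 1052 ± 84.9 against 1396 ± 149.9 CPM (log2 fold change 0.41 ± 0.09, adjusted p = 0.00434). Nfe2l2, the NRF2 gene itself, was 62.2 ± 12.5 against 87.8 ± 13.4 CPM (log2 fold change 0.49 ± 0.12, adjusted p = 0.0106). Of 36 ER stress genes 1 was called in each direction (5.56%, against 3.23% of all genes). Ern1, the IRE1 sensor kinase, was higher at 39.6 ± 9.24 against 59.1 ± 13 CPM (log2 fold change 0.57 ± 0.14, adjusted p = 0.0135). Herpud1, a component of ER-associated degradation, was lower at 1112 ± 432 against 631 ± 115 CPM (log2 fold change -0.82 ± 0.21, adjusted p = 0.0207), a call lost without s3, s4 or s21, adjusted p up to 0.0562. Of 23 AP-1 and immediate early genes, Klf10 was higher and Ier2 was lower (8.7%, against 3.23% of all genes). Ier2 was 70.9 ± 38.5 against 35.4 ± 13.9 CPM (log2 fold change -1.0 ± 0.29, adjusted p = 0.0409), a call lost in 9 of the 16 fits without 1 library, adjusted p up to 0.136 (and in limma-voom). Without s29, s30, s32 and s33 the call of Ier2 was lost as well.

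Single members were called in several further lists of 22 to 29 genes, where 1 call is a share near the 3.23% of all genes. Tgfbr2, the type II TGF-beta receptor gene, was higher without overlap (6.34 to 12.6 CPM (median 8.57) in the L-G6pc+/+ libraries and 16.7 to 29.3 CPM (median 21.3) in the L-G6pc-/- libraries, log2 fold change 1.24 ± 0.19, adjusted p = 4.21e-05), the one call among 23 TGF-beta genes. Avpr1a, the hepatic vasopressin receptor gene expressed around the central vein, was lower at 46.2 to 116 CPM against 23.4 to 50.3 CPM (log2 fold change -1.12 ± 0.18, adjusted p = 0.000102), the one call among 22 Wnt and pericentral genes. Among 31 hepatocyte transcription factors 1 was called higher and 1 lower (6.45%, against 3.23% of all genes). DESeq2 called 4 lower and a scaling by library totals 3. Foxa3 was the one lower in edgeR, at 234 ± 59.6 against 148 ± 34.9 CPM (log2 fold change -0.66 ± 0.17, adjusted p = 0.0161), a call lost without s21 and s22 or s23 and s24. On the clock list, 3 of 22 genes were called (13.6%, against 3.23% of all genes). Bhlhe41, a transcriptional repressor, was higher at 1.76 ± 1.95 against 6.3 ± 4.57 CPM (log2 fold change 1.82 ± 0.50, adjusted p = 0.0311), and Clock was lower at 67.3 ± 10.9 against 51 ± 7.73 CPM (log2 fold change -0.40 ± 0.11, adjusted p = 0.0264). The call of Bhlhe41 was lost in 8 of the 16 fits without 1 library, adjusted p up to 0.0953, and that of Clock without s1, s5, s19, s21 or s24, adjusted p up to 0.0819.

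Of 45 lysosome and autophagy genes 3 were higher and 0 lower, against 2.2% and 1.03% of all genes, and 1 to 4 were higher when 1 library was left out. Fnip2, whose product partners folliculin, was 19.1 ± 4.93 against 35.1 ± 9.86 CPM (log2 fold change 0.88 ± 0.20, adjusted p = 0.00693). Ulk1, the autophagy kinase, was 229 ± 44.5 against 377 ± 131 CPM (log2 fold change 0.72 ± 0.19, adjusted p = 0.0261), a call lost in 6 of the 16 fits without 1 library, adjusted p up to 0.0867. Ctsd, cathepsin D, was 445 ± 35.7 against 588 ± 93.4 CPM (log2 fold change 0.40 ± 0.11, adjusted p = 0.0271), a call lost without s1, s19, s20 or s23, adjusted p up to 0.0589. Umps, of pyrimidine synthesis, was the one call of 27 nucleotide genes, at 23.7 ± 5.83 against 35.3 ± 6.53 CPM (log2 fold change 0.58 ± 0.14, adjusted p = 0.0115). Col15a1, a collagen gene, was the one call of 29 matrix genes, at 5.7 ± 2.27 against 10.3 ± 2.5 CPM (log2 fold change 0.83 ± 0.24, adjusted p = 0.0472), and was lost in 12 of the 16 fits without 1 library, adjusted p up to 0.104. Among 4 tested markers of other organs, 1 was called in each direction (50%, against 3.23% of all genes). Cela1, an elastase gene listed for the pancreas, was lower without overlap at 173 to 284 CPM against 55.6 to 165 CPM (log2 fold change -1.18 ± 0.20, adjusted p = 0.000222). Prss2, Cela2a, Pnlip and Ctrb1, pancreatic genes of the same list, held 0 to 3 reads in total per genotype. Cela1 is therefore not read here as a measure of pancreatic tissue. Fabp2, an intestinal fatty acid binding protein gene, was higher at 17.1 to 42.3 CPM against 28.9 to 99.2 CPM (log2 fold change 0.96 ± 0.25, adjusted p = 0.0205), a call lost without s1 or s21, adjusted p up to 0.0706.

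No member was called in edgeR among 48 oxidative phosphorylation genes, 10 mitochondrially encoded genes, 40 ribosomal protein genes, 35 proteasome genes and 20 YAP targets, against 7, 0, 7, 3 and 4 at an unadjusted p under 0.05. Limma-voom also called 0 in each, and DESeq2 called 2 ribosomal protein genes and 1 YAP target. Over all genes edgeR called 3.23%, and 1486 of 10179 had an unadjusted p under 0.05. The medians of these lists lay between -0.05 and 0.11, beside the 0.0021 of all genes. Values above 0 were found in 41 of the 48 oxidative phosphorylation genes, 1 of the 10 mitochondrially encoded genes, 15 of the 40 ribosomal protein genes, 25 of the 35 proteasome genes and 11 of the 20 YAP targets, against 50.3% of all genes.

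The second genotype pair, shChREBP/L-G6pc-/- (9 libraries) against shChREBP/L-G6pc+/+ (8 libraries), shares no library with the first and asks whether the genotype difference was also present with the shRNA against ChREBP. In that pair Mlxipl was 366 ± 49.9 CPM in the L-G6pc+/+ and 386 ± 112 CPM in the L-G6pc-/- libraries, against the shSCR means of 535 and 574 CPM above. Its genotype difference there was 0.08 ± 0.13, adjusted p = 0.765, and without s29, s30, s32 and s33 it was called higher in the L-G6pc-/- libraries (0.38 ± 0.10, adjusted p = 0.0138). In the shChREBP pair 1124 genes (11%) were called, 625 (6.14%) higher and 499 (4.9%) lower. Of the 224 genes called higher with shSCR, 206 had the same sign with shChREBP and 109 were called higher, and of the 105 called lower, 92 had the same sign and 49 were called lower. The 158 genes called the same way in both are 48% of the 329 and 14.1% of the 1124. Without s29, s30, s32 and s33 the pair had 913 calls of 10399 genes tested, 551 higher and 362 lower, and 103 of the 224 were called higher and 29 of the 105 lower, instead of 109 and 49. The median over the 224 fell from 0.82 to 0.50 and over the 105 moved from -0.68 to -0.45, for genes that were chosen on the shSCR pair.

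Of the ChREBP targets, 17 were called higher in the shChREBP pair and 0 lower, with a median log2 fold change of 0.74. Without s29, s30, s32 and s33, 18 were called higher, the median was 0.82, and Kifc3, a kinesin gene named after its values were seen, was called lower (-0.59 ± 0.17, adjusted p = 0.0304). In the 9 against 8 libraries, log2 fold changes of the shChREBP pair were 1.6 ± 0.17, adjusted p = 3.62e-08 for Pklr and 1.49 ± 0.16, adjusted p = 7.04e-08 for Tkfc, both past the threshold, and without the 4 libraries 1.8 ± 0.17, adjusted p = 3.43e-08 for Pklr and 1.34 ± 0.18, adjusted p = 1.7e-05 for Tkfc. With all libraries they were 0.76 ± 0.28, adjusted p = 0.0712 for Fasn, 0.84 ± 0.40, adjusted p = 0.176 for Txnip, 0.29 ± 0.21, adjusted p = 0.407 for Arrdc4 and 0.75 ± 0.31, adjusted p = 0.11 for Klf10, none of which passed it. Without the 4 libraries Klf10 was called (1.05 ± 0.34, adjusted p = 0.0465), and Fasn (0.91 ± 0.33, adjusted p = 0.0795), Txnip (1.17 ± 0.45, adjusted p = 0.0993) and Arrdc4 (0.45 ± 0.22, adjusted p = 0.217) were not. The difference between the pairs was past the threshold for 0 of the 36 targets, with all libraries and without the 4. Over all genes it was past it for 8 of 10179 (0.0786%), and for 37 of 10399 without the 4. With so few calls over all genes, 0 of 36 does not show that the targets responded equally in both pairs. The log2 difference of Arrdc4, for example, was 0.71 ± 0.30, adjusted p = 0.321 with all libraries.

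Of the 77 genes whose groups did not overlap with shSCR, 50 were called the same way with shChREBP and 27 were not called. Among those called outside the list of targets, log2 fold changes with shChREBP were 2.96 ± 0.35, adjusted p = 3.1e-07 for Lepr, 2.78 ± 0.19, adjusted p = 8.1e-13 for Apoa4, 1.27 ± 0.12, adjusted p = 5.52e-09 for Gpi1 and -0.66 ± 0.11, adjusted p = 0.000146 for Cyp27a1. Without s29, s30, s32 and s33 they were 3.19 ± 0.38, adjusted p = 1.88e-06 for Lepr, 2.96 ± 0.19, adjusted p = 8.66e-13 for Apoa4, 1.16 ± 0.14, adjusted p = 1.88e-06 for Gpi1 and -0.53 ± 0.13, adjusted p = 0.00984 for Cyp27a1. Among those not called with shChREBP, they were 0.04 ± 0.09, adjusted p = 0.809 for C4bp, 0.21 ± 0.16, adjusted p = 0.435 for Mgll, -0.69 ± 0.26, adjusted p = 0.0726 for Plekhf1 and -0.54 ± 0.19, adjusted p = 0.0633 for Cela1, besides Tgfbr2 and Cyp2d40, described next. Without the 4 libraries, when Mgll was called, they were 0.02 ± 0.10, adjusted p = 0.937 for C4bp, 0.49 ± 0.16, adjusted p = 0.0418 for Mgll, -0.79 ± 0.31, adjusted p = 0.109 for Plekhf1 and -0.25 ± 0.21, adjusted p = 0.493 for Cela1. Saa2, whose groups overlapped with shSCR, was not called in the shChREBP pair (0.57 ± 0.49, adjusted p = 0.5, and 0.77 ± 0.58, adjusted p = 0.446 without the 4).

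The difference between the 2 genotype differences was tested for every gene, and 8 of 10179 (0.0786%) were called, with 1226 at an unadjusted p under 0.05. The number depended strongly on the method and on the 4 libraries that stood apart: it was 37 without s29, s30, s32 and s33, 73 in DESeq2 and 4 in limma-voom. The 8 genes are named after their values were seen, and 6 of them remained called without the 4 libraries. Tgfbr2 and Cyp2d40 were higher in L-G6pc-/- livers with shSCR, whereas with shChREBP their log2 fold changes were -0.01 ± 0.18, adjusted p = 0.976 and -0.11 ± 0.22, adjusted p = 0.806. The difference between the pairs was 1.25 ± 0.26, adjusted p = 0.0365 for Tgfbr2, and 1.35 ± 0.28, adjusted p = 0.0266 without the 4 libraries. For Cyp2d40 it was 1.41 ± 0.30, adjusted p = 0.0486, and 1.16 ± 0.32, adjusted p = 0.0964 without them, so that this call was lost.

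D10Wsu102e and Esf1 were lower with shSCR (log2 fold change -0.63 ± 0.12, adjusted p = 0.000918, and log2 fold change -0.42 ± 0.12, adjusted p = 0.0369), and with shChREBP their log2 fold changes were 0.29 ± 0.12, adjusted p = 0.0964, and 0.38 ± 0.11, adjusted p = 0.0263. Esf1, a nucleolar protein gene, was thus the one gene called in opposite directions with all libraries, although its shSCR call was lost in 9 of the 16 fits without 1 library, adjusted p up to 0.104. Without s29, s30, s32 and s33 both were called higher in the shChREBP pair, D10Wsu102e at 0.42 ± 0.13, adjusted p = 0.0347, and Esf1 at 0.41 ± 0.13, adjusted p = 0.0492. In that fit the difference between the pairs was -1.05 ± 0.17, adjusted p = 0.00324 for D10Wsu102e and -0.83 ± 0.18, adjusted p = 0.0272 for Esf1.

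The other 4 were not called with shSCR and were called higher in L-G6pc-/- livers with shChREBP. Srxn1, the sulfiredoxin gene and an NRF2 target, was 162 ± 23.1 against 185 ± 42.9 CPM with shSCR and 130.5 ± 19.7 against 791 ± 678 CPM with shChREBP. Its log2 fold change there was 2.6 ± 0.33, adjusted p = 1.84e-06, and 1.33 ± 0.18, adjusted p = 1.81e-05 without s29, s30, s32 and s33. Ifit3b, an interferon-stimulated gene, was 15 ± 4.44 against 18.3 ± 6.97 CPM with shSCR and 11.3 ± 4.13 against 42.2 ± 11.4 CPM with shChREBP. Its log2 fold change there was 1.92 ± 0.22, adjusted p = 1.74e-07, and 1.88 ± 0.25, adjusted p = 1.4e-05 without the 4. Cyp2a5, a paralog of Cyp2a4, was 93.2 ± 23.6 against 86.5 ± 33.6 CPM with shSCR and 69.8 ± 25.4 against 223 ± 118 CPM with shChREBP. Its log2 fold change there was 1.67 ± 0.26, adjusted p = 3.32e-05, and 1.1 ± 0.24, adjusted p = 0.00384 without the 4 libraries, when the difference between its pairs was -1.2 ± 0.32, adjusted p = 0.0922 and no longer past the threshold. Hsd17b13, a lipid droplet protein gene of hepatocytes, was 788 ± 81 against 704 ± 137 CPM with shSCR and 498 ± 73.5 against 905 ± 217 CPM with shChREBP. Its log2 fold change there was 0.86 ± 0.13, adjusted p = 1.57e-05, and 0.96 ± 0.13, adjusted p = 1.89e-05 without the 4. Without them the difference between the pairs was -1.13 ± 0.25, adjusted p = 0.0272 for Srxn1, -1.61 ± 0.35, adjusted p = 0.0272 for Ifit3b and -1.12 ± 0.18, adjusted p = 0.00324 for Hsd17b13.

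**Figure D5:**
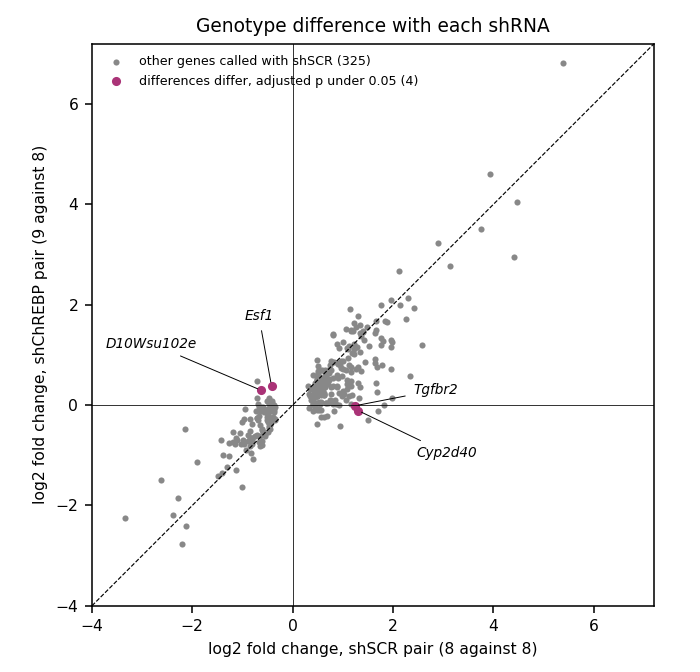
Genotype log2 fold change of the 329 genes called with shSCR (x axis, 8 against 8 libraries) and of the same genes with shChREBP (y axis, 9 against 8 libraries). The dashed line marks equal values, and the 4 labelled genes, Tgfbr2, Cyp2d40, D10Wsu102e and Esf1, are those whose 2 differences differed with an adjusted p under 0.05.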

How the data were processed

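Mouse liver RNA was sequenced as single reads of 50 bases from 3′ QuantSeq libraries on a HiSeq2500. The authors aligned the reads with HISAT to GRCm38 (Ensembl release 82), used SAMtools for sorting, and obtained gene-level counts from HTSeq-count. Tool versions and the strand setting are not given in the sources used here, so that overlapping and antisense genes cannot be told apart. The deposited raw count table covers 25988 genes in 33 libraries. A second deposited table holds a normalised signal, which the authors made in MADMAX with voom, and each of its values matched the count plus 0.5 divided by 1 constant per library. Gene symbols were taken for 25826 genes from GENCODE M21.

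The counts were analysed with edgeR 4.0.16 in R 4.3.3 (TMM, genes kept by filterByExpr at 10 counts and 15 in total, quasi-likelihood test). All 4 groups were in 1 model, so that the spread was shared, and p-values were adjusted over all genes tested. Levels are TMM-scaled CPM, and the depth of a library, given with the results, sets the precision of its low levels. Alternatives used RLE factors, library totals, other filters, DESeq2 1.42.0, limma-voom and limma 3.58.1 on the log2 of the deposited normalised signal, the 16 libraries alone, and each library left out in turn. The 3 further fits without several libraries that stood apart were chosen after the data were seen. On simulated data for this comparison (10051 genes), edgeR called 77.8% of 2-fold and 46% of 1.5-fold changes, and 7 of 9852 unchanged genes. The simulated counts were drawn independently for each gene and library. They lacked deviations shared by many genes of a library, as in s6, so these shares are not error rates of the real comparison.

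The comparison, the 50 gene lists (1371 symbols, of which 13 were not found and 1122 were tested) and the naming rule were chosen with earlier results of these data known. The rule named G6pc, Mlxipl and Pklr, the 10 largest rises, the 10 largest falls and the 10 smallest p values among genes with a mean of at least 5 CPM, leaving out predicted genes and pseudogenes. It also allowed up to 6 members of each list with the smallest p, and any member of lists with at most 20 measured members and of the ChREBP target, glycogen, gluconeogenesis and clock lists. Some genes that the rule named are not reported here. Promoter windows came from RefSeq on GRCm38.p6 and were searched for both motifs on both strands.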

Additional observations from a re-analysis of the deposited data

Results flagged for a closer look

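In each group of 8 libraries, a named gene's highest or lowest library was compared with its nearest neighbour by Dixon's criterion. It was met in 28 of 252 combinations of gene and group (11.1%). The criterion is set to be met in about 1 of 20 for independent, normally distributed values. CPM of related genes are not such values, so whether 11.1% exceeds chance was not tested. Library s6 of shSCR/L-G6pc+/+ accounted for 10 of the 28, each time as the highest of its group. Its levels were 296 CPM for Elovl6 (next 94.5), 57.8 CPM for Atp2b2 (next 27.5), 478 CPM for Fbp1 (next 366), 312 CPM for Tkfc (next 182) and 374 CPM for Gpd1 (next 313). They were 2050 CPM for Fasn (next 931), 23.5 CPM for Pnpla3 (next 4.73), 2860 CPM for Thrsp (next 870), 108 CPM for Pdhb (next 71.8) and 16.6 CPM for Rpia (next 10.1). With s6 left out, 23 instead of 19 ChREBP targets were called higher.

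Library s17 of shSCR/L-G6pc-/- was the highest of its group for Pklr (461 CPM, next 332), Tkfc (613 CPM, next 380), Gpd1 (658 CPM, next 477), Fgf21 (13.4 CPM, next 6.76) and Inhba (89.2 CPM, next 45.1). Library s23 of that group was the highest for Mup12 (13.5 CPM), Sult5a1 (26.1 CPM), Elovl3 (106 CPM) and Fth1 (1720 CPM). Library s8 of shSCR/L-G6pc+/+ was the highest for the urinary protein genes Mup1 (85 CPM), Mup12 (78.2 CPM) and Mup11 (309 CPM), which share reads among their copies. The remaining cases were Nags (56.2 CPM) and Ifit3b (33.7 CPM) in s18, Cd36 (140 CPM) in s20 and Nr4a2 (6.56 CPM) in s7, each the highest of its group. The lowest of their groups were the Alb levels in s2 (12500 CPM) and in s19 (6140 CPM).

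The genotype difference differed between the shRNAs for 8 genes (edgeR's test of the difference, adjusted over all genes, 8 or 9 libraries per group). On the log2 scale, the shSCR difference minus the shChREBP difference was -1.02 for Hsd17b13, -0.92 for D10Wsu102e, -2.41 for Srxn1, -1.65 for Ifit3b, -1.78 for Cyp2a5, -0.80 for Esf1, 1.25 for Tgfbr2 and 1.41 for Cyp2d40. The level of Cyp2a5 is uncertain because short reads cannot be divided with certainty between it and Cyp2a4.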

How the results depend on the processing

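The 329 calls of the shSCR comparison became 314 to 420 under 7 other scalings, filters and tools, 333 with the 16 libraries alone, 261 to 331 when 1 library was left out, and 264 to 363 in the 3 fits without several libraries. None of the 329 genes changed sign in any of these that fitted it. The higher share was 68.1%, and 57.6% with library totals alone. Of 104 named genes that were called, 63 did not lose the call in any of the 27 fits that gave them an adjusted p, and 41 lost it in at least 1 fit. Some genes were not tested in every fit. Of 22 named genes that were not called, 6 gained the call in at least 1 fit, with lowest adjusted p values of 0.00116 for Pnpla3, 0.0107 for Scd1, 0.0137 for Tkt, 0.0205 for Acacb, 0.0427 for Slc37a4 and 0.0482 for Top2a, and Cyp2a5 changed sign. Its log2 fold change was -0.10, between -0.27 and 0.0049 when 1 library was left out (above 0 without s4), and 0.055 without s21 and s22. The 8 genes whose genotype difference depended on the shRNA became 33 with library totals alone, 73 in DESeq2, 4 in limma-voom, 3 in limma on the deposited values, 37 without s29, s30, s32 and s33, and 4 to 12 when 1 library was left out. The cause was not tested. The shChREBP pair kept 1086 to 1174 calls when 1 shSCR library was left out. No paired analysis was possible because the library numbers run from 1 to 33 and none is shared between groups. At the depth of these libraries, genes at a few CPM rest on a handful of reads, as in the mitosis list.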
